A study of Mus musculus with 4 samples.

Results

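The 9 genes described here encode the urokinase receptor (Plaur), both plasminogen activators (Plau and Plat), a serpin that inhibits them (Serpine2), a pair of matrix metalloproteinases (Mmp2 and Mmp14) and 3 tissue inhibitors of metalloproteinases (Timp1, Timp2 and Timp3). The rows with these symbols were taken from each of the 4 deposited tables, which hold 24850 named entries for total RNA and 24992 for polyA RNA, and each symbol occurred once in each table. The genes were chosen with earlier results of the same libraries known and were selected in part on their change between the libraries, so that their levels and changes are given as a description. All cells were C2C12, mouse myoblasts of an established line whose cells fuse to myotubes once moved to differentiation medium (DM). Myoblasts (MB, DM -24 h, in growth medium) and myotubes (MT, DM 72 h) gave 1 total RNA library each, depleted of ribosomal RNA, while MT at DM 48 h transfected with an siRNA against hnRNPL (si-hnRNPL) or a scrambled control (si-NC) gave 1 polyA library each. MB and MT therefore differed in medium and serum as well as in stage. With 1 library per condition the differences could not be tested against the spread between cultures.

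Plasminogen activators are secreted serine proteases that cleave plasminogen, a protein of blood and serum, into plasmin, which degrades fibrin and matrix proteins and can activate several pro-metalloproteinases. Urokinase does so while bound to its receptor at the cell surface, and serpins inactivate the activators. Mmp14 is anchored in the membrane and cleaves collagen and the inactive form of Mmp2, for which it uses Timp2 as an adaptor, although Timp2 in excess blocks the same reaction. In muscle these proteases act in regeneration, in the migration of myoblasts through matrix and in remodeling around new fibers.

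Expression was given as FPKM, a fragment number scaled to transcript length and to the size of the library. Its 95% interval reflects the counting and assignment of fragments in a single library and holds no spread between cultures. A gene is called expressed below at an FPKM of 1 or more. Since FPKM is per length, levels of different genes are set side by side within a library. Other effects of exon length and GC content are not taken out of these levels. From the interval widths, the libraries held 59960176 (MB), 54442423 (MT), 21341051 (si-NC) and 14592480 (si-hnRNPL) implied fragments. The 9 genes themselves rested on 170 (Serpine2 in si-hnRNPL) to 50475 (Timp2 in MT) implied fragments. The labels held for markers of the stages, as all 6 markers of differentiated muscle were higher in MT (summed FPKM 16.3 against 1740) and all 5 proliferation markers lower (515 against 88.8). Myog, a muscle differentiation factor, had 0.695 FPKM in MB and 251 in MT. The part of this change of stage in the values below was not tested. Markers of endothelial cells and adipocytes were near 0, with summed FPKM of at most 0.368 and 0.0446 in any library. The macrophage list summed to at most 1.21, in MB, of which Cd68 gave 1.13. The osteoblast list summed to 0.333 in MB and 1.12 in MT, of which Bglap gave 0.202 and 1.09.

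Plaur, which anchors urokinase at the cell surface, had an FPKM of 70.0 (68.4 to 71.7) in MB, 3.55 (3.19 to 3.92) in MT, 9.14 (8.23 to 10.0) in si-NC and, in si-hnRNPL, 8.96 (7.84 to 10.1). It was high in MB and low in every MT library, and the intervals of MB and MT lay far apart. The polyA libraries differed from total RNA in time, RNA selection and annotation, and the tables were scaled separately. For this and every gene below, a polyA level beside a total RNA level is therefore a description only. In MT it was 19.7-fold lower than in MB (17.4 to 22.5 from the bounds of both intervals), a log2((FPKM + 1) ratio) of -3.96. Of the 10791 named entries expressed in both MB and MT, Plaur had the 5th lowest change. Because these are bulk samples, fewer cells that express a gene and less of its RNA per cell cannot be told apart.

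Its ligand did not follow it. Plau, urokinase itself, had an FPKM of 44.6 (43.6 to 45.6) in MB, 46.3 (45.3 to 47.3) in MT, 120 (117 to 122) in si-NC and, in si-hnRNPL, 88.5 (85.8 to 91.2). The intervals of MB and MT overlapped, and the log2 change was 0.05 (0.01 to 0.10). Plat, the tissue-type activator, had an FPKM of 18.9 (18.3 to 19.6) in MB, 32.8 (32.0 to 33.6) in MT, 46.9 (45.3 to 48.4) in si-NC and, in si-hnRNPL, 38.9 (37.1 to 40.6). It was lowest in MB, and the change of 0.76 on the log2 scale (0.71 to 0.82) made it 1.73-fold higher in MT.

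Serpine2, also named protease nexin-1, inhibits urokinase, tissue-type activator and thrombin. It had an FPKM of 2.46 (2.21 to 2.71) in MB, 11.9 (11.4 to 12.5) in MT, 4.09 (3.58 to 4.60) in si-NC and, in si-hnRNPL, 4.12 (3.49 to 4.76). MT total RNA was the high library here, 4.85-fold above MB (4.20 to 5.64), with a log2 change of 1.90. The polyA libraries of MT held it at a lower FPKM than total RNA of MT, but they differed in time, RNA selection and annotation, and the tables were scaled separately.

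**Figure D1:**
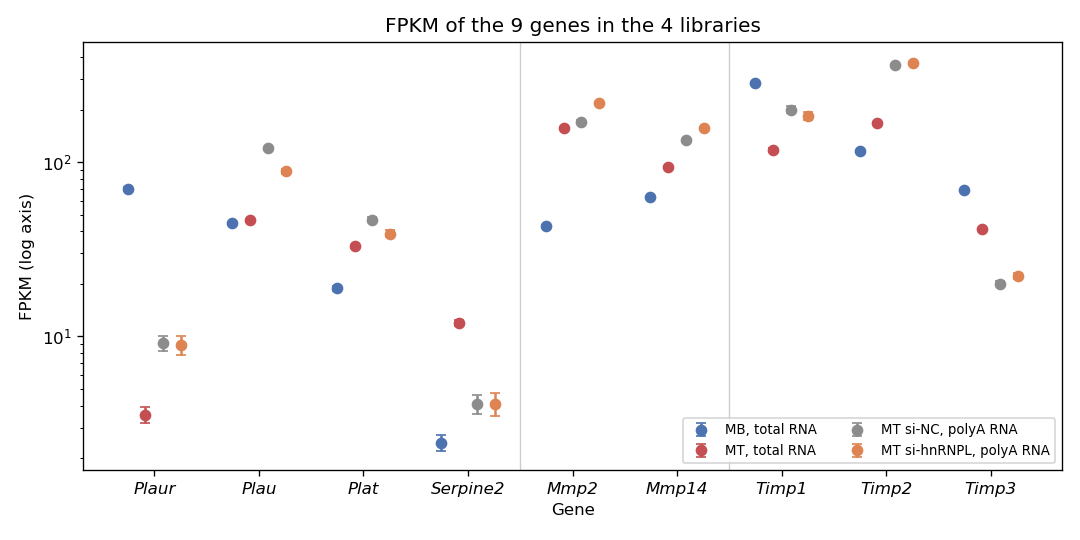
Points show the FPKM (log axis) of each of the 9 genes in the 4 libraries, 1 library per condition, and bars the deposited 95% intervals. Plaur stood at 70.0 in MB and at 3.55 to 9.14 in the MT libraries, while Mmp2 stood at 42.9 in MB and at 158 to 219 in the MT libraries. The polyA and total RNA libraries differed in time and RNA selection and were scaled separately.

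Mmp2, gelatinase A, is secreted as an inactive precursor and cleaves denatured collagen and basement membrane collagen. Its FPKM was 42.9 (42.0 to 43.7) in MB, 158 (156 to 159) in MT, 171 (168 to 174) in si-NC and, in si-hnRNPL, 219 (215 to 223). MT total RNA exceeded MB 3.68-fold (3.57 to 3.79), a log2 change of 1.85. The polyA libraries also had a higher FPKM than MB, but were scaled separately. Mmp14, its membrane-bound activator, had an FPKM of 63.1 (62.0 to 64.2) in MB, 94.0 (92.6 to 95.3) in MT, 133 (131 to 135) in si-NC and, in si-hnRNPL, 156 (153 to 159). The order of the libraries was the same as for Mmp2, with a smaller difference of 1.49-fold (1.44 to 1.54) between MT and MB and a log2 change of 0.57.

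The inhibitors moved in different directions. Timp1, a secreted inhibitor of most metalloproteinases that acts weakly on membrane-type ones, had an FPKM of 282 (278 to 287) in MB, 117 (115 to 120) in MT, 200 (192 to 209) in si-NC and, in si-hnRNPL, 184 (175 to 193). MB was the high library, and MT was 2.40-fold lower (2.31 to 2.51), a log2 change of -1.26. Timp2 had an FPKM of 116 (115 to 118) in MB, 168 (166 to 169) in MT, 363 (359 to 366) in si-NC and, in si-hnRNPL, 372 (367 to 376). Here MB was the low library, with MT 1.44-fold higher (1.41 to 1.47) and a log2 change of 0.52. Timp3, which binds to the matrix and also inhibits several ADAM and ADAMTS enzymes, had an FPKM of 69.5 (68.6 to 70.3) in MB, 41.3 (40.7 to 42.0) in MT, 20.1 (19.4 to 20.8) in si-NC and, in si-hnRNPL, 22.3 (21.4 to 23.2). It was highest in MB, and MT was 1.68-fold lower (1.63 to 1.73), a log2 change of -0.74.

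A change of 0.58 or more on the log2 scale, which is close to the 1.5-fold cutoff of the study, was counted as higher or lower. By this count 3 of the 9 genes (Plat, Serpine2 and Mmp2) were higher in MT, 3 (Plaur, Timp1 and Timp3) were lower, and 3 (Plau, Mmp14 and Timp2) lay between. The interval of Mmp14 (0.54 to 0.60) spanned the cutoff. Of all named entries 7.81% were higher and 13.7% lower, and of the 11816 entries expressed in either library, 15.4% and 28.6%. Since the genes were chosen on this comparison, nothing is read from the difference between these shares. The median log2 change was 0.52 over the 9 genes, against 0.00 over all named entries and -0.20 over those expressed in either library. For entries expressed in both, the median was -0.23. Relative to that median the 9 genes changed by -3.74 (Plaur) to 2.13 (Serpine2), Mmp14 (0.79) and Timp2 (0.75) also passed the cutoff, and Timp3 (-0.51) no longer did. Over all named entries, 1942 were higher and 3407 lower as deposited, and 3060 and 2208 relative to the median. After correction for exon length and GC content, Mmp14 (0.77) and Timp2 (0.65) also passed the cutoff, and Timp3 (-0.78) still did.

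**Figure D2:**
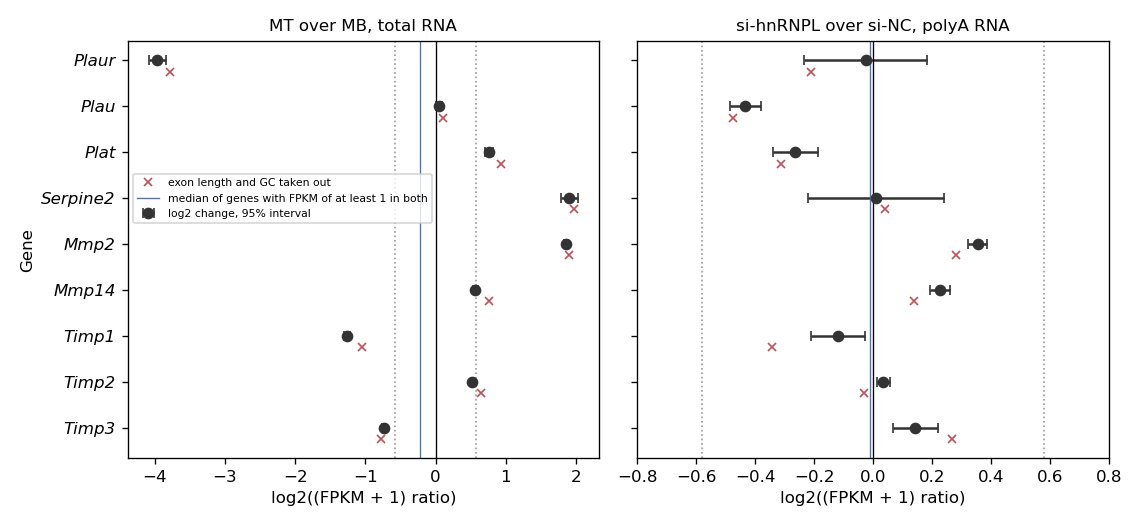
Black points show log2((FPKM + 1) ratio) of each gene with its 95% interval from the deposited intervals, for MT over MB (left) and si-hnRNPL over si-NC (right, narrower axis), dotted lines the cutoff of 0.58, the blue line the median of entries expressed in both libraries, and red crosses the change corrected for exon length and GC content. Changes ran from -3.96 to 1.90 between MT and MB and from -0.43 to 0.35 between si-hnRNPL and si-NC.

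The order of the genes by FPKM also differed between the libraries. In MB the order from the highest was Timp1, Timp2, Plaur, Timp3, Mmp14, Plau, Mmp2, Plat and Serpine2, and the intervals of Plaur and Timp3 overlapped, as did those of Plau and Mmp2. In MT the order was Timp2, Mmp2, Timp1, Mmp14, Plau, Timp3, Plat, Serpine2 and Plaur, with no overlap between neighbors. Plaur thus went from the 3rd to the last place and Mmp2 from the 7th to the 2nd. The polyA libraries ranked Timp2 highest and Serpine2 lowest, and they differed from each other in 1 respect, as Timp1 preceded Mmp2 in si-NC and followed it in si-hnRNPL. Neighbors did not overlap in either of them.

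Ratios between genes of 1 library do not depend on how that library was scaled. Plau to Plaur was 0.637 (0.608 to 0.667) in MB and 13.03 (11.6 to 14.8) in MT, a 20.5-fold difference. In si-NC the ratio was 13.1 (11.7 to 14.9) and in si-hnRNPL 9.88 (8.50 to 11.6). Receptor transcripts therefore outnumbered ligand transcripts per length in MB and in none of the other 3 libraries. Serpine2 to Plat was 0.130 (0.113 to 0.148) in MB, 0.364 (0.339 to 0.389) in MT, 0.0872 (0.0740 to 0.101) in si-NC and, in si-hnRNPL, 0.106 (0.0861 to 0.128). This inhibitor stayed below both activators in all 4 libraries.

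Timp1, Timp2 and Timp3 together summed to 468 FPKM in MB and 327 in MT, while Mmp2 and Mmp14 together had 106 and 252. The ratio of the inhibitors to these proteases was 4.42 (4.27 to 4.57) in MB, 1.30 (1.26 to 1.33) in MT, 1.92 (1.85 to 1.99) in si-NC and, in si-hnRNPL, 1.54 (1.48 to 1.61). It was 3.40-fold lower in MT than in MB and above 1 in every library. The composition of the inhibitors differed too, since Timp1 made up 60.3% of their sum in MB and 35.95% in MT, and Timp2 24.9% and 51.4%. Timp2 to Mmp2 went from 2.72 (2.63 to 2.80) in MB to 1.07 (1.05 to 1.09) in MT, whereas Timp2 to Mmp14 was 1.85 (1.79 to 1.90) in MB and 1.79 (1.75 to 1.83) in MT, with overlapping intervals.

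**Figure D3:**
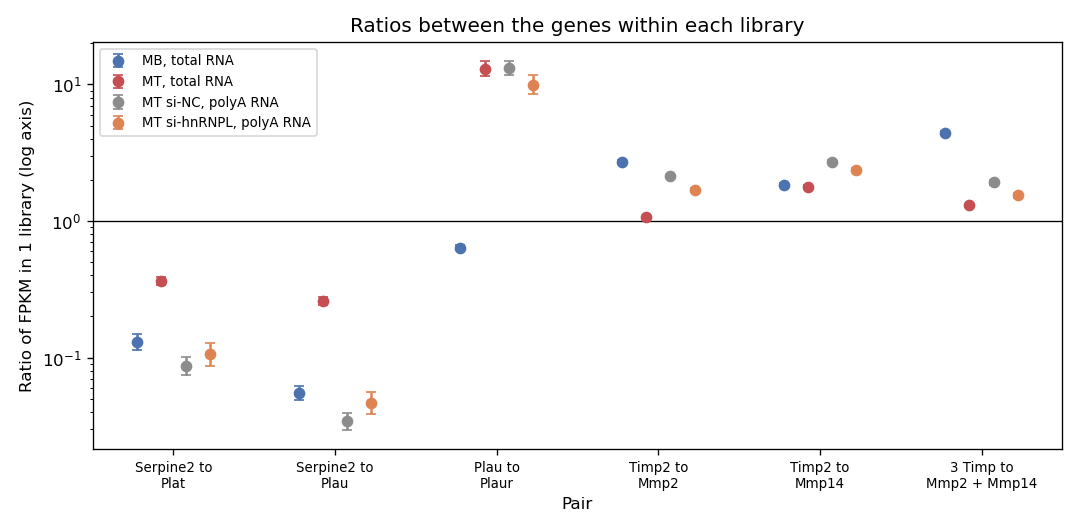
Points show the ratio of FPKM between genes of 1 library (log axis), bars the bounds from the deposited intervals, and the line a ratio of 1. Plau to Plaur was below 1 in MB alone, and the ratio of the 3 Timp genes to Mmp2 and Mmp14 was highest in MB at 4.42.

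Promoter windows were at hand in the RefSeq table (GRCm38.p6) for 6 of the 9 genes, Plaur, Serpine2, Mmp14, Timp1, Timp2 and Timp3. Each window runs from 250 bases before to 50 bases after the start of the gene and matched exactly 1 place on its chromosome in mm9 (NCBIM37), the build of the deposited tables. Those of Plaur, Serpine2, Timp1 and Timp3 are printed because these genes passed the cutoff between MB and MT, 3 of them downward and Serpine2 upward. Capitals mark AP-1 sites (TGANTCA) and E-boxes (CANNTG, the letters bound by MyoD and other basic helix-loop-helix factors), and both patterns read the same on either strand.
Plaur: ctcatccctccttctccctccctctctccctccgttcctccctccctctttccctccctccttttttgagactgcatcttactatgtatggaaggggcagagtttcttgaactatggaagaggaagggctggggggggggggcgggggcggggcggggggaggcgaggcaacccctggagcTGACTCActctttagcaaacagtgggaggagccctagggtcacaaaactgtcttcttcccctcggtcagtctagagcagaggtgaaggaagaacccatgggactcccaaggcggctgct
Serpine2: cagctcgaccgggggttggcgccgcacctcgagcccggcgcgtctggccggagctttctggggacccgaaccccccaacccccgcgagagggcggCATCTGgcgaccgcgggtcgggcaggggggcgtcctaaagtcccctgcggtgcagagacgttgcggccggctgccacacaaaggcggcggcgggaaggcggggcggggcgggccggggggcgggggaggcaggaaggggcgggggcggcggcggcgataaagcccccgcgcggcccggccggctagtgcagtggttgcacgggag
Timp1: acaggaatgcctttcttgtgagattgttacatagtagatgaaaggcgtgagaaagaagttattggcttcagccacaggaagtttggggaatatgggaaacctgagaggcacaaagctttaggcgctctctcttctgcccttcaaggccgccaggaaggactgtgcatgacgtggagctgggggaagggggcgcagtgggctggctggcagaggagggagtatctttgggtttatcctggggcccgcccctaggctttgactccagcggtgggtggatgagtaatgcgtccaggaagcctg
Timp3: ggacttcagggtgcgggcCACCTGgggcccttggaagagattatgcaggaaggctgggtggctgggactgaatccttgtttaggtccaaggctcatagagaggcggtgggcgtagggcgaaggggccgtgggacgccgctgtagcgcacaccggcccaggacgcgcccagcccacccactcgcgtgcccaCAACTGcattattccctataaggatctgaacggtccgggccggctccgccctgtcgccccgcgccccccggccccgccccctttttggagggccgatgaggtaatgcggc

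The window of Plaur (chr7:25247252-25247551 in mm9, plus strand) held the AP-1 letters once, 69 bases before the start, which 7.81% of the 32851 promoter windows of this length hold. It held no E-box letters, and neither did that of Timp1 (chrX:20447042-20447341, plus strand), while 72.3% of all windows hold them. The window of Serpine2 (chr1:79855191-79855490, minus strand) held 1 E-box and that of Timp3 (chr10:85762907-85763206, plus strand) 2. Among the windows not printed, that of Mmp14 held 1 E-box and that of Timp2 2, 1 of which reads CAGCTG, a form held by 16.3% of windows and included among the E-boxes. The GC box (GGGCGG, on either strand) occurred in all 6, with 6 matches in Serpine2 and 3 in Plaur, some of them overlapping, against 35.7% of all windows. A match is a description of the letters and shows no binding.

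The loci lie on 7 chromosomes. In the total RNA tables, in mm9, they are chr7:25247519-25260892 (Plaur), chr14:21655884-21662610 (Plau), chr8:23868216-23893320 (Plat), chr1:79790896-79855240 (Serpine2), chr8:95351227-95377319 (Mmp2), chr14:55050441-55060095 (Mmp14), chrX:20447292-20451863 (Timp1), chr11:118162375-118216725 (Timp2) and chr10:85763157-85812250 (Timp3). The GENCODE annotation of that build gives exon lengths from 888 bases for Timp1 to 8144 for Timp3. Timp1, Timp2 and Timp3 each overlap another gene. Timp1 and Timp3 lie within Syn1 and Syn3, synapsin genes on the opposite strand, and the gene listed as BC100451 in total RNA and Cep295nl in polyA RNA lies within Timp2. Syn3 reached at most 0.221 FPKM in any library, and the gene within Timp2 at most 2.49. Syn1 stood at 0.924 FPKM in MB and 0.605 in MT, but 6.30 in si-NC and 5.499 in si-hnRNPL. The total RNA libraries were strand-specific, whereas nothing is stated of strand for the polyA libraries, and whether reads of Syn1 reached the values of Timp1 there was not tested.

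The total RNA tables also list transcript units assembled from the reads. None of the 9 loci was overlapped by such a unit, against 26.9% of the 10274 protein-coding genes expressed in MT. Within 5000 bp there were 4 units beside Plaur, 2 beside Mmp2 and 3 beside Timp1, and 0 beside the others. The unit nearest to Timp1, 111 bp before it, stood at 0.0145 FPKM (0 to 0.0435) in MB and 0.152 (0.0603 to 0.243) in MT, while Timp1 itself was lower in MT. The unit nearest to Plaur, 1764 bp away, had 0.167 (0.0704 to 0.263) in MB and was listed at 0 in MT. These units were too low for a firm comparison.

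The knockdown compared si-hnRNPL with si-NC in MT. Hnrnpl, the target, had an FPKM of 95.1 (92.7 to 97.5) in the control and 85.9 (83.1 to 88.7) after knockdown, a log2 change of -0.14, so the mRNA gives little check of the label. None of the 9 genes passed the cutoff in either direction, and of all named entries 0.688% were higher and 0.416% lower, or 1.44% and 0.888% of the 11370 expressed in either library. The median change was 0.01, against -0.01 over the entries expressed in both libraries.

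Below the cutoff, the activators and the metalloproteinases differed in opposite directions. Plau had the largest difference, with a log2 change of -0.43 (-0.49 to -0.38) from an FPKM of 120 to 88.5, and 2.19% of the 11090 entries expressed in both libraries had a lower change. Plat had a change of -0.26 (-0.34 to -0.19), and 8.35% of these entries had a lower one. Mmp2 had a change of 0.35 (0.32 to 0.39) and Mmp14 of 0.23 (0.19 to 0.26). Of these entries 95.2% lay below Mmp2 and 87.9% below Mmp14, and the quartiles of their changes were -0.13 and 0.12. The intervals of these 4 did not overlap between the libraries, but no spread between cultures is known. The share of all entries with intervals apart is not given here, so nothing is read from this.

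Plaur (-0.02, -0.23 to 0.18) and Serpine2 (0.01, -0.22 to 0.24) had nearly the same value in both libraries, with wide intervals at 170 to 407 implied fragments. Timp1 (-0.12), Timp2 (0.03) and Timp3 (0.14) had smaller changes than the activators and the metalloproteinases before correction for gene structure. The FPKM intervals of Timp1 overlapped while those of Timp2 and Timp3 did not, from which nothing is read either. The ratio of the 3 inhibitors to Mmp2 and Mmp14 was 1.24-fold lower in si-hnRNPL, and Plau to Plaur 1.33-fold lower. These ratios were not corrected for exon length and GC content, with which changes in this pair of libraries correlated.

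Other features of this pair of libraries moved alongside. Across 9859 protein-coding genes, which are not independent replicates, the change correlated with exon length (Spearman rho -0.41) and with GC content (0.42). After correction for both, Plau was at -0.48, Plat at -0.31, Mmp2 at 0.28, Mmp14 at 0.14, Timp1 at -0.34, Timp3 at 0.27, Serpine2 at 0.04 and Plaur at -0.21, so that Timp1 then exceeded Plat, Mmp2 and Mmp14 in size, while Timp2 went from 0.03 to -0.03. Of the 6 muscle markers 3 were higher by the cutoff in si-hnRNPL (median 0.56, summed FPKM 2782 against 4210), and of the 5 proliferation markers 2 were lower (median -0.46, summed FPKM 215 against 154). The part of these differences in the values of the 9 genes was not tested.

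For the rest of both systems, 51 genes in 4 lists were read in the same way, lists that were also drawn up with earlier results of these data known. Between MB and MT, 11 of the 51 were higher and 5 lower, beside 7.81% and 13.7% of all named entries (15.4% and 28.6% of those expressed in either library). Nothing is read from this difference, since the lists were drawn up with results known. Relative to the median of entries expressed in both libraries, 13 were higher and 3 lower. Of all 24850 named entries, 3060 were higher and 2208 lower on that scale, and nothing is read from this either. The median over the 51 genes was 0.02, and over the 27 expressed in either library 0.26.

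In the plasminogen system 1 of 13 genes was higher in MT and 3 were lower. The shares of all named entries were 7.81% and 13.7%, and of those expressed in either library 15.4% and 28.6%. Serpinb2, a serpin that inhibits urokinase, had 8.05 (7.49 to 8.61) in MB and 0.0254 (0 to 0.0538) in MT, a log2 change of -3.14, whereas Serpine2 was higher in MT. Anxa2 and S100a10, which form a complex that binds plasminogen at the cell surface, had 582 and 470 in MB and 252 and 299.6 in MT, with log2 changes of -1.20 and -0.65, and relative to the median S100a10 no longer passed the cutoff. Mrc2, an endocytic collagen receptor that associates with the urokinase receptor, was the gene that was higher, at 10.5 in MB and 27.8 in MT. Plasminogen itself (Plg) was listed at 0 in MB and reached at most 0.0222 in the other libraries.

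Of the 19 other matrix metalloproteinases 3 were higher in MT and 0 lower, beside 7.81% and 13.7% of all named entries (15.4% and 28.6% of those expressed in either library). The higher ones were Mmp15, which is membrane-bound like Mmp14 and went from 0.747 (0.653 to 0.841) in MB to 6.11 (5.85 to 6.37) in MT, Mmp19 (4.39 and 10.8) and Mmp11 (16.98 and 29.2). A further 3 reached an FPKM of 1 in MB or MT without passing the cutoff (Mmp16, Mmp28 and Mmp23, of which Mmp23 passed at 0.60 relative to the median), and the other 13 stayed below 1 in both libraries, so Mmp2 and Mmp14 had the highest FPKM of all matrix metalloproteinases read in MB and MT. None of the other inhibitors (Timp4, Reck and A2m) passed the cutoff, and only Reck reached an FPKM of 1.

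Of the 16 ADAM and ADAMTS genes, 7 were higher in MT and 2 lower, beside 7.81% and 13.7% of all named entries. Of the 14 expressed in either library 6 were higher and 2 lower, beside 15.4% and 28.6% of all entries so expressed. As deposited the higher ones were ADAMTS genes, which encode secreted enzymes, among them Adamts5 (5.30 in MB and 18.7 in MT) and Adamts4 (3.48 and 11.9), which cleave aggrecan and versican, Adamts7 (4.20 and 10.7), Adamts2, which trims procollagen (4.26 and 9.69), Adamts12 (0.761 and 1.87) and Adamts1 (12.8 and 19.8). The remaining one, Adamts15, stayed below an FPKM of 1 in both libraries. The lower ones were the membrane proteins Adam12 (14.9 and 7.19) and Adam15 (14.3 and 9.18), of which Adam15 no longer passed relative to the median. On that scale Adam19, a membrane-bound ADAM, was also higher at 0.62 (0.39 as deposited, with a wide interval of -0.50 to 1.28). Adam9, another membrane-bound ADAM, had the highest FPKM of the list (57.7 in MB and 53.3 in MT) and did not pass the cutoff. In si-hnRNPL against si-NC none of the 51 genes passed the cutoff, and those expressed in either library changed by -0.44 (Adamts15) to 0.25 (Mmp23).

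**Figure D4:**
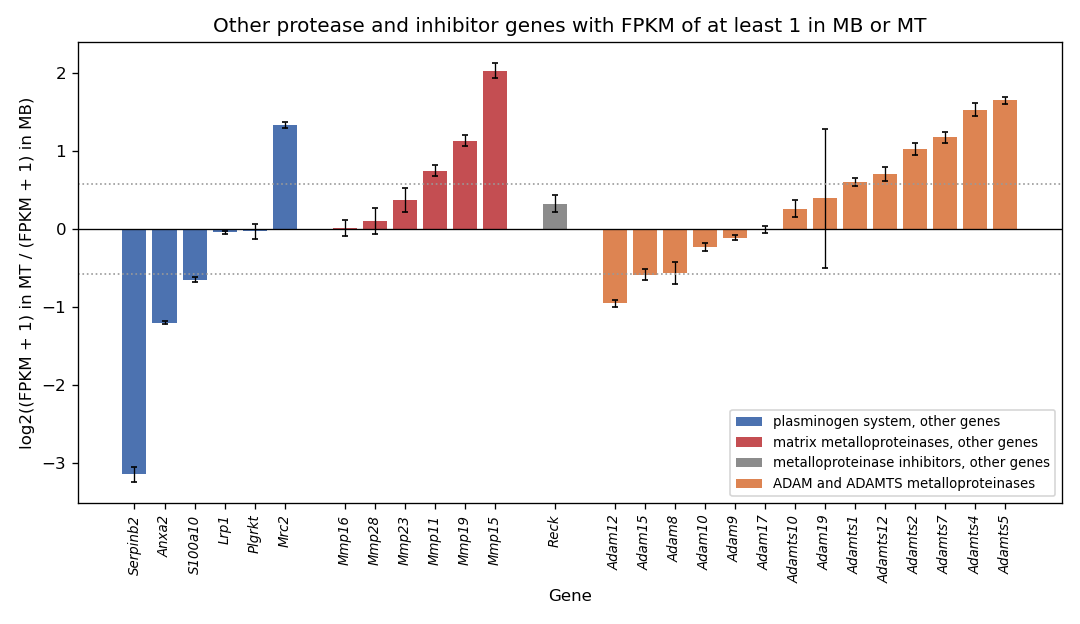
Bars show log2((FPKM + 1) in MT / (FPKM + 1) in MB) for the 27 genes of the 4 lists expressed in MB or MT, with 95% intervals from the deposited intervals and dotted lines at the cutoff of 0.58 in either direction. Serpinb2 lies at -3.14 and Mmp15 at 2.03, and of the ADAM and ADAMTS genes those past the upper line are ADAMTS. Adam19 at 0.39 passes only relative to the median of entries expressed in both libraries.

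Nek2 and Spag5 were among the 3 genes most like Plaur of 23408 symbols found once in every table, by Euclidean distance over the 4 values of log2(FPKM + 1) (0.95 and 1.01). The FPKM in MB, MT, si-NC and si-hnRNPL was 40.9, 4.46, 12.7 and 10.8 for Nek2, and 41.4, 5.72, 12.3 and 9.28 for Spag5. They encode proteins of the mitotic centrosome and spindle, from which nothing is read about Plaur. The distance rests on 4 libraries.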

How the data were processed

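Total RNA of 1 MB and 1 MT culture and polyA RNA of 1 si-hnRNPL and 1 si-NC culture were sequenced. The authors trimmed reads, discarded those under 36 bp, mapped the rest to mm9 with TopHat2, estimated abundance with Cufflinks and deposited FPKM with its 95% interval. Depth is known only through implied fragments, (2 x FPKM / (upper bound - FPKM)) squared, which are not read counts, so no count test was run. Log2 changes used a pseudocount of 1, which understates changes of low genes, and their intervals add both half-widths in quadrature. Named entries are those whose identifier is not that of an assembled unit. The genes, lists and comparisons were chosen with earlier results of these data known. Named were the 9 genes, list genes past 0.58 with an FPKM of at least 1, Hnrnpl and Myog, overlapping genes and the 3 profiles nearest to Plaur, and single list genes added after their values were seen, and a list gene and a profile that met this rule are not reported here and are left out of the list counts. Exon length and GC content were taken out by medians of 20 bins, over 3 rounds. Python 3.11.15 with pandas 2.3.3, numpy 2.4.6, matplotlib 3.10.9 and scipy 1.17.1 was used, and the steps were tested on simulated data.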

Additional observations from a re-analysis of the deposited data

How the results depend on the processing

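No paired analysis was possible because each condition has 1 library. All 9 genes kept their direction between MT and MB under the other pseudocounts (0.1 and 0.01), centring on the median and the correction for exon length and GC content, and in si-hnRNPL against si-NC 8 of 9 did, the exception being Timp2. Centring put 5 genes above the cutoff in MT in place of 3 and the median change at 0.75, and the correction for gene structure put it at 0.65. Plaur ranged from -4.30 to -3.74 and Serpine2 from 1.97 to 2.27 over these settings. For the 51 list genes in MT, a pseudocount of 0.01 gave 20 higher and 11 lower, one of 0.1 gave 9 lower, a cutoff of 1 left 7 and 2, and centring left 3 lower in place of 5. In si-hnRNPL a pseudocount of 0.01 gave 4 higher and 5 lower, and one of 0.1 gave 2 lower. A smaller pseudocount gives more weight to genes of low FPKM. The shares of all named entries at these pseudocounts and at a cutoff of 1 are not given here, so nothing is read from these counts. With a pseudocount of 1, Plau to Plaur in MT was 10.4 in place of 13.03. Single libraries, and Serpine2 and Plaur at 170 to 407 implied fragments in the polyA libraries, limit what can be said of small differences.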
